A study of Rattus norvegicus with 6 samples.

Results

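Chemosensory receptors are the membrane proteins with which the nose, the vomeronasal organ and the tongue read chemicals. The rows described here are all 1331 rows of a rat retinal expression table, of 26406 in all, whose symbol begins with Olr and a digit (olfactory receptors, 1132 rows), Vom1r (88 rows) or Vom2r (58 rows; receptors of the vomeronasal organ, which senses pheromones), Tas1r (3 rows; sweet and umami taste), Tas2r (35 rows; bitter taste) or Taar and a digit (15 rows; trace amine receptors, which are also smell receptors). The choice used names and no measured value. The other 19270 rows with a symbol served for comparison.

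The study sequenced neural retina RNA from rats aged 60 postnatal days, in 6 samples that form 3 groups of 2. 2 of the groups had a sham operation: wild-type rats of the Long Evans strain, and rats of the Royal College of Surgeons (RCS) strain, in which loss of Mertk function in the pigment epithelium leads to photoreceptor death. Eyes of the other group, also RCS, received human neural progenitor cells (hNPCs) under the retina. Surgery took place at postnatal day 21, sham eyes received carrier medium, and the part of the retina with the graft, or its counterpart, was taken. The table analysed has 1 FPKM value per gene (fragments scaled to the length of the transcript and to all mapped fragments) with a lower and an upper bound, and no column names a sample. It therefore shows retinal RNA from 1 library or a pool, with no replicates, no comparison of groups and no test, and the intervals below are the authors' bounds for that single value.

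Each mature olfactory sensory neuron expresses a single olfactory receptor gene from a large repertoire, most of which lies in tandem clusters with the coding sequence in 1 exon. Receptor binding activates a cascade through the G protein subunit Gnal, the cyclase Adcy3 and a cyclic-nucleotide-gated channel, a design related to that of phototransduction. Taste receptors of the Tas1r family work as pairs, Tas1r2 with Tas1r3 for sweet and Tas1r1 with Tas1r3 for umami compounds. Some of these receptors are also known outside the sense organs.

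The retinal identity of the RNA was clear from its markers. The 5 rod genes checked ranged from Pde6b, a phosphodiesterase subunit gene, at 517.6 FPKM to Gnat1, the rod transducin alpha subunit gene, at 6316 FPKM. The 3 Müller glia genes had a median of 114 FPKM, the 3 bipolar cell genes 59.3 FPKM and the 5 amacrine and ganglion cell genes 42.2 FPKM. Of 8 olfactory sensory neuron markers, 7 had a row, of which 4 were at 1 FPKM or more and 5 had a lower bound above 0. Among the other symbol rows the shares were 63.8% and 71.9%, so these counts do not set the markers apart. Stoml3 was listed at 0 and Cnga2 stood at 0.0481 FPKM, while Ano2 (56.9 FPKM), Gnal (22.9 FPKM), Adcy3 (2.65 FPKM) and Gng8 (1.62 FPKM) were above 1 FPKM. Cnga4 was at 0.190 FPKM. Omp, the classical marker of mature olfactory neurons, had no row under that symbol. Of 3 genes of olfactory supporting cells, Cyp2g1 and Cyp2a3 were listed at 0 and Ermn, which oligodendrocytes also express, was at 3.15 FPKM. Of 5 taste cell markers with a row, Krt8 (2.89 FPKM) and Entpd2 reached 1 FPKM, beside the same 63.8%.

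The windows around the annotated gene starts of 5 receptors with a lower bound above 0 are shown first, because they make plain what most receptor rows measure. They run from 250 bases before to 50 after the start and come from the RefSeq promoter table of assembly GRCr8. In the 4 olfactory receptors the capitals mark the start codon at positions 251 to 253. The sweet receptor Tas1r2, with no start codon at those positions, is in lower case throughout.
Olr1592 (Or6k6, chr13:88681605-88681904, minus strand): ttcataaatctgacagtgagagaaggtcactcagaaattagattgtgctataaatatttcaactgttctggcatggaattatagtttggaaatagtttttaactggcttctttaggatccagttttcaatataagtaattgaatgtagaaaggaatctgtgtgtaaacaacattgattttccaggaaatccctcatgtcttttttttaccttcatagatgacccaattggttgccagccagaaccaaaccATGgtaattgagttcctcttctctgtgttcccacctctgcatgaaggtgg
Olr1193 (Or7h7b, chr8:27137051-27137350, minus strand): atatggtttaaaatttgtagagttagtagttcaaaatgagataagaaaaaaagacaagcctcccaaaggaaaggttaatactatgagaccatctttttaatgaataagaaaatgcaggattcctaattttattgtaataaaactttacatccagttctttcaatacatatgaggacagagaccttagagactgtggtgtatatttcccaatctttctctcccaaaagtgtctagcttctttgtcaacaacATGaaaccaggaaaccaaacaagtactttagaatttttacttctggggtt
Olr1653 (Or14p1, chr17:54427-54726, minus strand): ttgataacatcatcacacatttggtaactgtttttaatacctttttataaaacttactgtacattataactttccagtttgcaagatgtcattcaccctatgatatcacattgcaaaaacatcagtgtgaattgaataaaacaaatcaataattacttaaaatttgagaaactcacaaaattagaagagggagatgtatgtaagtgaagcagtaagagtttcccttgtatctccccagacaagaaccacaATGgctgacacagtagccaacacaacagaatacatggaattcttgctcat
Olr804 (Or10ac1, chr4:72417889-72418188, minus strand): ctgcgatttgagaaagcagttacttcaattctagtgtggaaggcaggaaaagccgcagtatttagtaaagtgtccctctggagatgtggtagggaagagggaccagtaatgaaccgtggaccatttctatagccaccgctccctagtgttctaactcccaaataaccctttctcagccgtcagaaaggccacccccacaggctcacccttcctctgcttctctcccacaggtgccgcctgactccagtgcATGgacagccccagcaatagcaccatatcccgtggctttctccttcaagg
Tas1r2 (Tas1r2, chr5:157192549-157192848, plus strand): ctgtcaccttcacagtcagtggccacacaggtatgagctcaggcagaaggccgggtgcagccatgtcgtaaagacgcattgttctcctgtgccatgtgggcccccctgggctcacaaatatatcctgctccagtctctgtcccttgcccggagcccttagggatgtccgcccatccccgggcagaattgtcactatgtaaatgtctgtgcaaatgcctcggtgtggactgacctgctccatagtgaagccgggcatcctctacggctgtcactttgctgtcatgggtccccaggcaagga
The annotated gene of the 4 olfactory receptors thus begins at its start codon. The same held for 835 of 840 olfactory receptor genes with a window (99.4%), against 12.96% of 21851 protein-coding genes. In the expression table, 1056 of 1071 Olr rows that spanned 780 to 1100 bases had a span divisible by 3. Most olfactory receptor rows therefore have the span of a coding sequence alone, so fragments of untranslated exons would lie outside them.

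Receptor rows were nearly empty in the retina. Of the 1331, 48 (3.61%) were above 0 FPKM, against 79.7% of the other symbol rows. At 1 FPKM or more there were 2 receptor rows (0.150%), against 63.8% of the others. The deposited lower bound lay above 0 in 11 receptor rows (0.826%), against 71.9%. The median receptor row was listed at 0 and the median of the other symbol rows was 3.64 FPKM. A zero is given here only as listed at 0, since the 37 rows of the mitochondrial chromosome, whose genes every retinal cell uses, were also listed at 0.

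By family, all 3 Tas1r rows were above 0, and so were 7 of 58 Vom2r rows (12.1%), 36 of 1132 Olr rows (3.18%), 1 of 35 Tas2r rows and 1 of 88 Vom1r rows. All 15 Taar rows were listed at 0. The families also differ in the length of their loci, with a median span of 32038 bases in Vom2r, 11722 bases in Tas1r and 942 bases in Olr.

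Short rows outside the receptor families often held signal. Of the 392 other symbol rows that spanned 780 to 1100 bases, 51.5% were above 0 and 35.5% reached 1 FPKM. Of the 1193 receptor rows in that range, 2.93% were above 0 and 1 reached 1 FPKM. Among other G-protein-coupled receptors, 67 of 88 rows named Gpr and a digit were above 0, with a median of 0.385 FPKM. Only 2 of 20 Mrgpr and Fpr rows were above 0, a set that includes receptors of itch neurons and of phagocytes. These sets were not matched for length: the median span was 10240.5 bases in the Gpr rows and 987 bases in the Mrgpr and Fpr rows. Other families known to be confined to a few tissues were also sparse, with 1 of 41 beta-defensin (Defb) rows and 0 of 25 keratin-associated protein (Krtap) rows above 0.

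**Figure D1:**
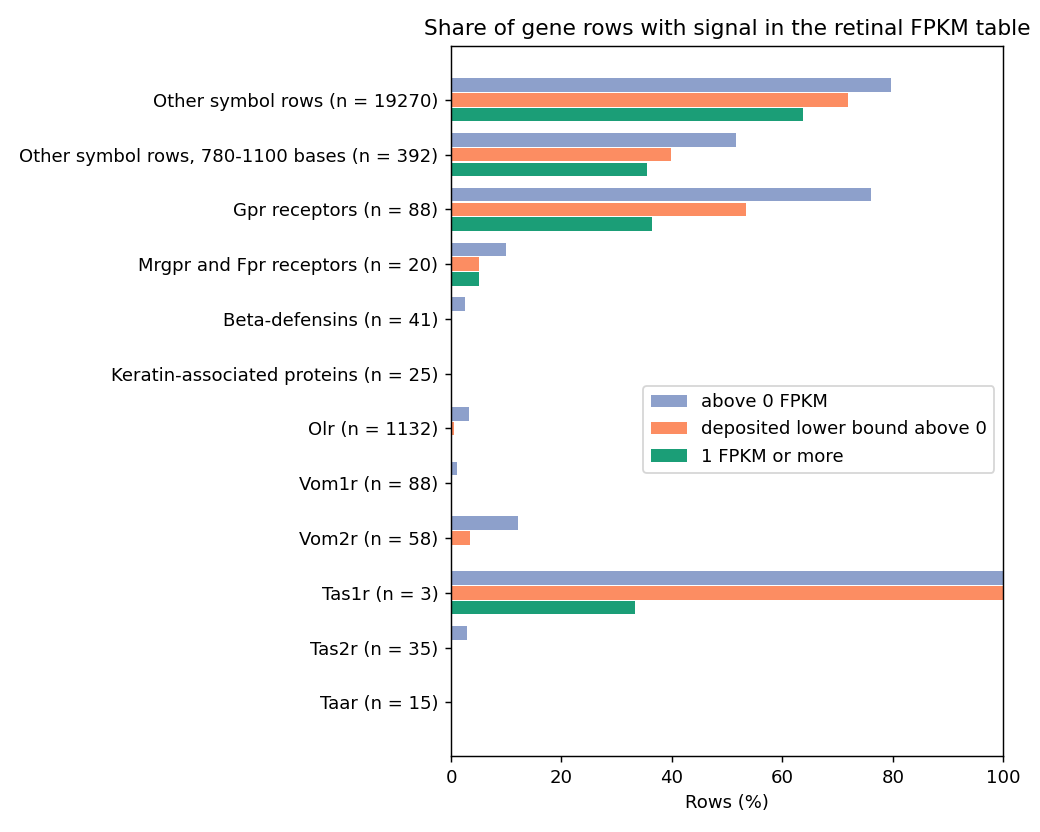
Percent of gene rows above 0 FPKM, with a deposited lower bound above 0, and at 1 FPKM or more, for other symbol rows (all, and those of 780 to 1100 bases), 4 comparison families and the 6 receptor families (number of rows in brackets). The Olr bar above 0 ends at 3.18%, against 79.7% for other symbol rows, and of the receptor families only Tas1r, with 3 rows, is high.

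The highest receptor was Tas1r2, a subunit of the sweet taste receptor, at 5.39 FPKM (deposited interval 4.14 to 6.64). That exceeded 56.9% of the other symbol rows. Its row (ENSRNOG00000042920) covers positions 161806691 to 161874412 of chromosome 5 in build rn5. Tas1r1, the umami subunit, was at 0.623 FPKM (0.337 to 0.909; ENSRNOG00000009708, chromosome 5, 172758655 to 172770376). Tas1r3, the partner of both, was at 0.582 FPKM (0.299 to 0.864; ENSRNOG00000019589, chromosome 5, 176784486 to 176787639). The interval of Tas1r2 lay wholly above those of its partners, which overlapped each other.

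The Tas1r2 row differed from Tas1r1 and Tas1r3 in other ways. If a bound lies 2 standard errors from the value and reflects counting alone, the number of fragments behind a row follows from its FPKM and upper bound. This implied number was a whole number for Tas1r1 (19) and Tas1r3 (17), within 0.02, but 74.35 for Tas1r2. Each implied fragment was worth 0.0725 FPKM in Tas1r2, against 0.0328 in Tas1r1 and 0.0342 in Tas1r3. The gap in FPKM was therefore wider than the gap in implied fragments. The Tas1r2 locus spanned 67722 bases, against 11722 for Tas1r1 and 3154 for Tas1r3. Neither the lack of a whole number nor the long locus was particular to Tas1r2 among receptors. Of the 48 rows above 0, 18 (Tas1r2 included) had no whole number, and Vom2r60 (124770 bases) and Vom2r16 (786968 bases) were longer. Of those 18, Tas1r2, Vom2r16, Vom2r45 and Vom2r52 had no row of like number and span among receptors or on their chromosomes. The rest lay in the sets of like rows described below. In the RefSeq gene order of assembly GRCr8, the protein-coding neighbours of Tas1r2 are Aldh4a1, which encodes a mitochondrial enzyme of proline breakdown, and Pax7. The table has a Pax7 row, listed at 0, and no row with the symbol Aldh4a1. Nearest to Tas1r2 in the table were the microRNA row rno-mir-6215, 6.545 kb away and listed at 0, and Pax7, 73.2 kb away. Whether fragments of another gene entered the Tas1r2 value was not tested.

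The other Tas1r genes lie among expressed genes. Tas1r1 was 0.282 kb from Zbtb48 (3.83 FPKM) and 1.001 kb from Nol9 (5.94 FPKM). Tas1r3 was 0.924 kb from Dvl1 (14.7 FPKM), a Wnt signalling gene, and 2.204 kb from Gltpd1 (9.73 FPKM). The part of these neighbours in the Tas1r values was not tested.

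Among olfactory receptors, Olr1592 was the only row to reach 1 FPKM, at 1.01 FPKM (deposited interval 0.337 to 1.69), from 9 implied fragments. Its row (ENSRNOG00000003518) lies on chromosome 13 at 96727285 to 96728208. The symbol is a synonym of Or6k6 in RefSeq. It sits inside a receptor cluster, and the next 2 rows on each side, at 11.3 to 31.3 kb, were all listed at 0. Its start window above carries the letters TATAAA, as do 37.7% of receptor windows.

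Olr1193, Olr1738, Olr1653 and Olr804 were the other olfactory receptors with a lower bound above 0. Olr1193 (Or7h7b; ENSRNOG00000028864, chromosome 8, 21367597 to 21368559) stood at 0.747 FPKM (0.182 to 1.31) from 7 implied fragments, and the rows on both sides, Olr1191 and Olr1192, were listed at 0. Olr1738 (Or12d14c; ENSRNOG00000029883, chromosome 20, 3831486 to 3832412) stood at 0.672 FPKM (0.123 to 1.22) from 6 fragments, between Olr1737 and Olr1739, both listed at 0. Olr804 (Or10ac1; ENSRNOG00000017906, chromosome 4, 136752557 to 136753510) was at 0.540 FPKM (0.0570 to 1.02) from 5 fragments, and its neighbours Olr803 and Fam115e, at 58.3 and 51.8 kb, were listed at 0 as well. With Olr1592, 4 of these 5 receptors thus had both nearest rows at 0. Such neighbours are common here, as 1283 of the 1331 receptor rows were themselves listed at 0. The second row on 1 side was above 0: Zfp560 (3.18 FPKM, 76.1 kb) for Olr1193, RT1-M3-1 (3.27 FPKM, 24.3 kb) for Olr1738 and Fam115c (0.318 FPKM, 87.2 kb) for Olr804. On the other side the second rows, Or7e24, Olr1736 and Olr802, were listed at 0.

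Olr1653 differed from these in its nearest rows. The receptor (Or14p1; ENSRNOG00000018489, chromosome 17, 4923922 to 4924869) was at 0.653 FPKM (0.120 to 1.19) from 6 fragments. It lay 9.651 kb from a row without a symbol at 14.5 FPKM and 29.2 kb from Hiatl1 at 13.0 FPKM, and Olr1652 on its other side held 1 fragment (0.112 FPKM). Chromosome 17 has 8 Olr rows, and these 2 were the ones above 0.

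One member is not a chemosensory receptor by its identity. The symbol Olr1 in RefSeq names the gene of the scavenger receptor for oxidised LDL, LOX-1, a lectin of vessels and macrophages, and is also a synonym of the olfactory receptor Or6al1. The Olr1 row (ENSRNOG00000008375, chromosome 4, 211883405 to 211905489) spanned 22085 bases and lay between Clec7a and Tmem52b in the table, as the LOX-1 gene does in the RefSeq order. It was at 0.366 FPKM (0.183 to 0.549) from 16 fragments. Without it, 47 of 1330 receptor rows were above 0 and 10 had a lower bound above 0.

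Vom2r44 was the highest vomeronasal receptor, at 0.832 FPKM (0.506 to 1.16) from 26 implied fragments. Its row (ENSRNOG00000010268) covers 173989005 to 174020953 of chromosome 2. Its neighbour Vom2r45 was at 0.143 FPKM (0 to 0.318) and the next, Vom2r46, was listed at 0. On the other side lay Slc33a1, an acetyl-CoA transporter gene, at 9.33 FPKM and 62.6 kb away. In the GRCr8 gene order Gmps, an enzyme gene of GMP synthesis, stands between Slc33a1 and Vom2r44, and the table has no row with that symbol. Vom2r60 (ENSRNOG00000040198, chromosome 12, 6440068 to 6564837) was at 0.272 FPKM (0.0796 to 0.464) from 8 fragments, 3.397 kb from Cers4, a ceramide synthase gene at 56.4 FPKM. The part of the neighbours in these values was not tested.

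The Tas2r and Vom1r families had a single row each above 0, and Taar had none. Tas2r137, a bitter receptor, was at 0.325 FPKM (0 to 0.701) from 3 fragments, and Vom1r90 was at 0.248 FPKM (0 to 0.496) from 4. Both lower bounds were 0. Around 1 FPKM, the values just inside were those of Olr1592 and, far above, Tas1r2, and the 5 just outside were Vom2r44, Olr1193, Olr1738, Olr1653 and Tas1r1, from 0.832 down to 0.623 FPKM.

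**Figure D2:**
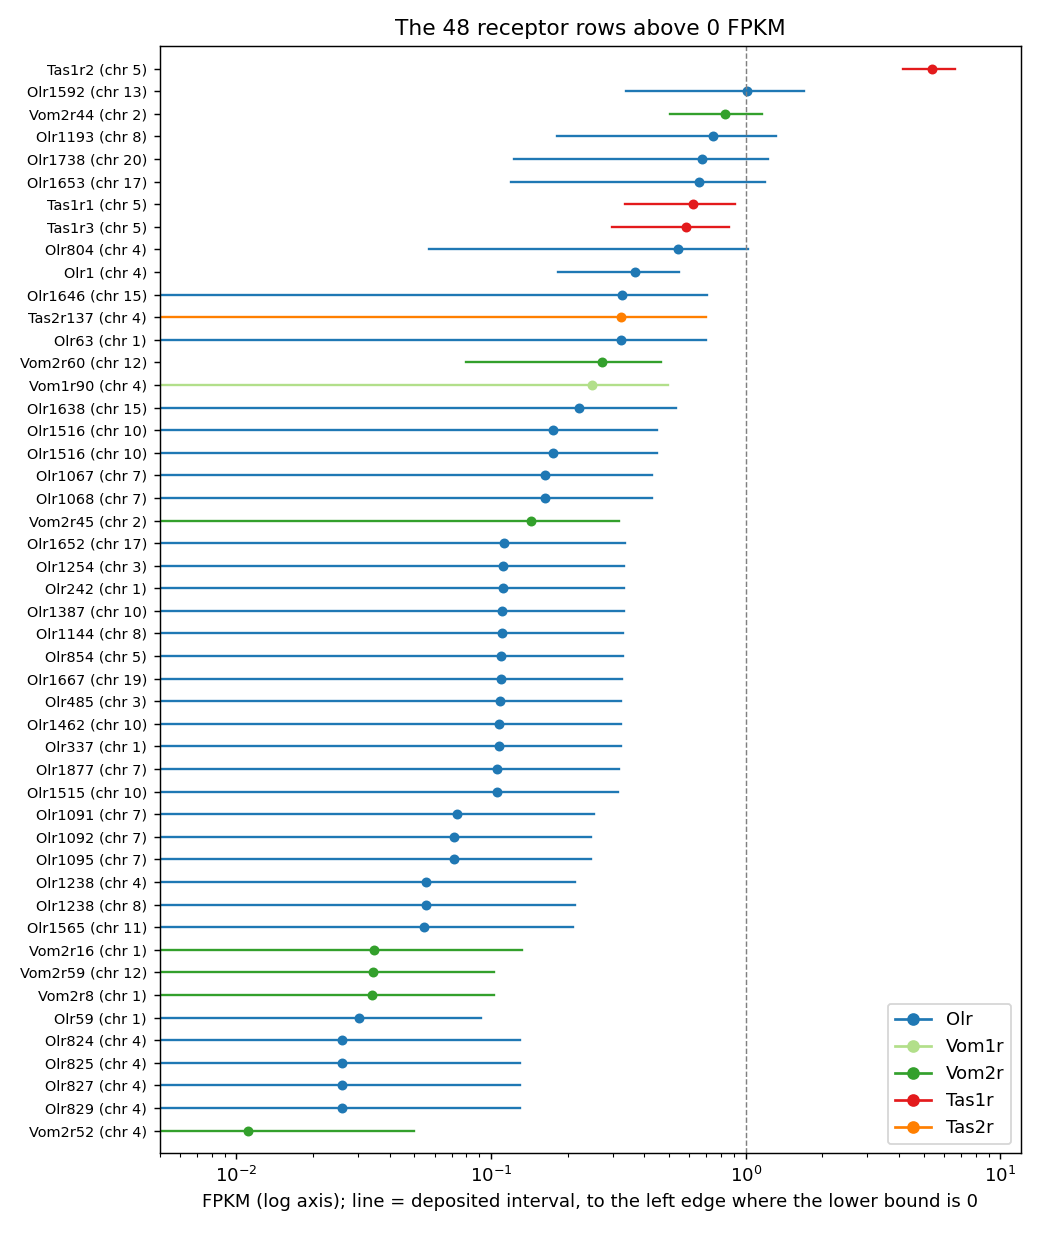
FPKM of the 48 receptor rows above 0 on a log axis, coloured by family, with the deposited interval as a line that runs to the left edge where the lower bound is 0 and a dashed line at 1 FPKM. Tas1r2, at 5.39 FPKM, stands apart from the others, and most rows have a lower bound of 0.

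The values rest on very few fragments. Of the 48 rows above 0, 30 had an implied number within 0.02 of a whole number, and in 15 of them it was 1. The implied fragments of all receptor rows summed to 237.7, of which the 3 Tas1r rows held 46.4%. The 1131 Olr rows other than Olr1 held 64.8 fragments together, and the 5 with a lower bound above 0 held 50.9% of these. By the way the number is computed, a lower bound above 0 means more than 4 implied fragments.

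The worth of 1 fragment was read from the short receptor rows. In 21 short rows with whole numbers (20 Olr and Tas2r137), 1 fragment was worth 0.105 to 0.112 FPKM. The reciprocal of that worth rose with the span along a straight line from which no row deviated by more than 0.00174%. Of 127 other symbol rows of 780 to 1100 bases with a whole number up to 200, 76 lay within 0.1% of the same line; the rest were not examined further. The line met 0 at a span of 201.3 bases, and its slope corresponds to a denominator of 12303139 fragments. The implied numbers of all rows of the table summed to 6124332, 49.8% of that. At the median span of 942 bases, 1 fragment was worth 0.110 FPKM, 3 fragments 0.329 FPKM, and 1 FPKM took 9.11 fragments. These values assume that the bounds are counting error and do not cover the spread between animals.

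**Figure D3:**
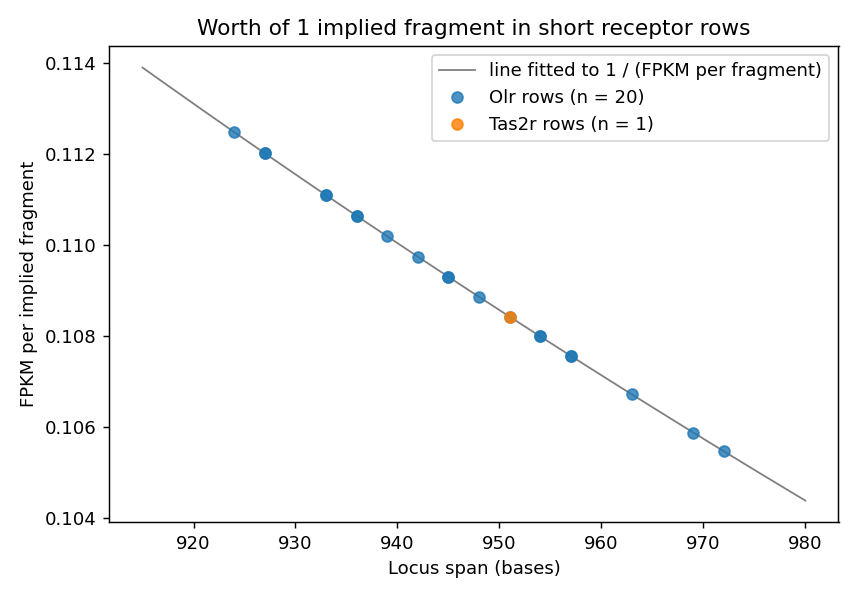
FPKM per implied fragment (vertical axis) against locus span in bases for the 21 short receptor rows with whole implied numbers, with the fitted curve. All points lie on the curve, from 0.112 FPKM at 924 bases to 0.105 FPKM at 972 bases.

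On the same line, the transcript length of the longer rows could be read from the worth of their fragments. It came to 2679 bases for Tas1r1, 2577 for Tas1r3, 2741 for Vom2r44 and 3751 for Olr1. Tas1r2, with no whole number, was not read in this way. In Tas1r1, Vom2r44 and Olr1 the locus was several times as long, as in genes with introns.

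Several low values occurred in sets of like rows. Olr824, Olr825, Olr827 and Olr829, which lie in 1 cluster of chromosome 4, each had 0.25 of a fragment (0.0260 FPKM), which sums to 1. Olr1091, Olr1092 and Olr1095 on chromosome 7 each had 0.667, summing to 2, and Olr1067 and Olr1068 on the same chromosome each had 1.5, summing to 3. The symbol Olr1238 is on 2 rows, at 1513028 to 1513957 of chromosome 4 and 42283774 to 42284703 of chromosome 8, and each had 0.5. Both Olr1516 rows of chromosome 10 and another row there without a symbol each had 1.667, summing to 5. Olr1565 and a row without a symbol on chromosome 11 each had 0.5. Such fractions can arise when a read that matches several copies is divided among them; the alignments needed to check this were not used here. For these rows the table cannot say which copy the fragments came from.

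A pair of olfactory receptors on chromosome 1 was also looked up. Olr63 (Or51e1 in RefSeq) was at 0.324 FPKM (0 to 0.698) from 3 fragments. Olr59 was at 0.0303 FPKM (0 to 0.0910) from 1 fragment. Both were chosen for mention after their values were seen.

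The surroundings of the olfactory receptor rows were counted. Of the 35 Olr rows above 0 other than Olr1, 2 (5.71%) had a row of at least 10 FPKM within 10 kb, against 8 of 1096 (0.730%) listed at 0. Within 100 kb the numbers were 9 of 35 (25.7%) and 141 of 1096 (12.9%). One of the first 2 was Olr1646 (0.328 FPKM from 3 fragments), with a row at 26.3 FPKM within 10 kb, and the other was Olr1653. The difference was not tested.

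The signalling genes downstream of the receptors include several that retinal neurons are known to use. Of the 15 olfactory transduction genes with a row, 12 were at 1 FPKM or more, against 63.8% of the other symbol rows, and their median was 13.2 FPKM, against 3.64 FPKM. Gnb1 (a G protein beta subunit of rods as well) was highest at 734 FPKM (720.3 to 747), followed by Cngb1, a channel subunit shared by rods and olfactory neurons, at 138 FPKM (134 to 141) and Gng13, a gamma subunit also used by ON bipolar cells, at 109 FPKM (93.9 to 124). Gnal was at 22.9 FPKM (20.8 to 25.0) and Adcy3 at 2.65 FPKM (2.21 to 3.10). The channel subunits proper to olfactory neurons were low: Cnga4 at 0.190 FPKM (0.02001 to 0.359) and Cnga2 at 0.0481 FPKM (0 to 0.123). Stoml3 was listed at 0.

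The helper genes varied widely. Of 11 receptor trafficking and receptor choice genes with a row, 7 were above 0 and 6 reached 1 FPKM, against 79.7% and 63.8% of the other symbol rows. Reep6, an endoplasmic reticulum protein gene important in rods, was at 335 FPKM (328 to 343), Kdm1a, a histone demethylase gene, at 23.7 FPKM (21.9 to 25.5) and Ldb1, a cofactor of LIM-homeodomain proteins, at 18.3 FPKM (16.6 to 20.03). Rtp1 and Rtp2, which bring olfactory receptors to the cell surface, were listed at 0, as were Rtp3 and Emx2. Lhx2 is among both the 7 above 0 and the 6 that reached 1 FPKM. It had a value of 17.3 FPKM with bounds of 0 to 27.5 and the authors' status LOWDATA, and is not read further.

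In the vomeronasal list all 6 genes with a row reached 1 FPKM, against 63.8% of the other symbol rows. Gnao1, a G protein gene widespread in neurons, was at 69.6 FPKM (65.7 to 73.5), Ano2, a chloride channel gene also of photoreceptor terminals, at 56.9 FPKM (53.7 to 60.2) and Gnai2 at 48.6 FPKM (45.8 to 51.5). Trpc2, the channel of vomeronasal neurons, was at 3.64 FPKM (2.996 to 4.29). In the taste list the median was 0.449 FPKM, and 6 of 14 genes were at 1 FPKM or more, beside the same 63.8%. The 3 highest were the rod transducin gene Gnat1 at 6316 FPKM (6284 to 6348), Gng13 at 109 FPKM and the cone transducin gene Gnat2 at 58.4 FPKM (54.6 to 62.2). Gnat3 (gustducin), the taste G protein, was at 0.0550 FPKM (0 to 0.165) from 1 fragment, and Trpm5, the channel of sweet, umami and bitter taste cells, was listed at 0. Gnat3 and Trpm5 were thus below 1 FPKM, while Gnb3 (52.1 FPKM), Itpr3 (1.62 FPKM) and Entpd2 of the same list were above it. Whether the level of Tas1r2 goes with taste signalling was not tested. Plcb2, Ebf1 and Omp had no row under these symbols.

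**Figure D4:**
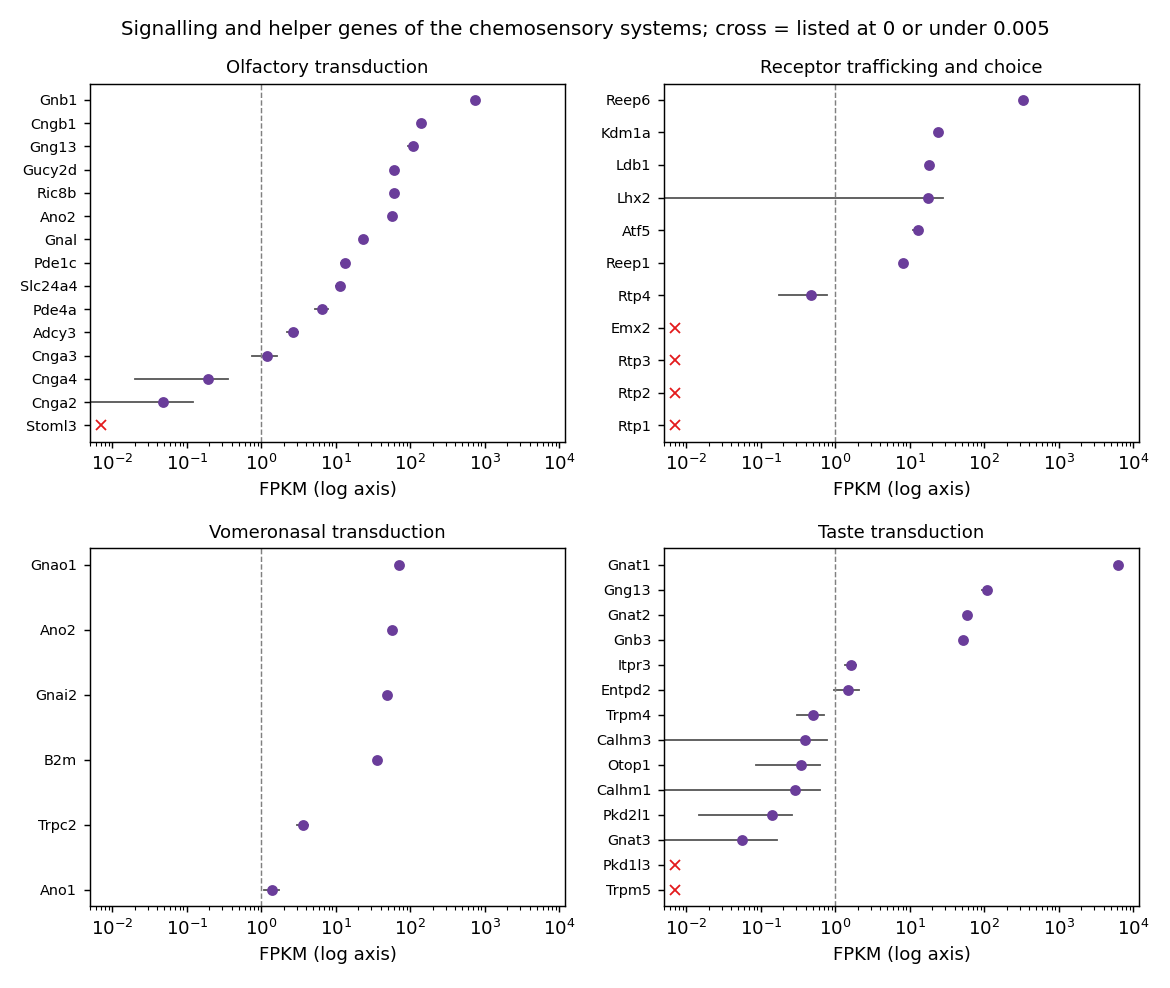
FPKM on a log axis of the genes of 4 chemosensory lists, with deposited intervals as lines, a dashed line at 1 FPKM and crosses for genes listed at 0 or under 0.005 FPKM. Genes shared with photoreceptors or other retinal neurons (Gnb1, Cngb1, Gnat1, Gnao1) lie at the top, and Rtp1, Rtp2, Stoml3 and Trpm5 are crosses.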

How the data were processed

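RNA was sequenced from rat neural retina, with libraries from the Ion Total RNA-seq kit per the labels' protocols. The authors deposited FPKM values with a lower and an upper bound in a table of Cufflinks format, per the file headers; the submitters' processing notes name Cufflinks 2.0.8 and build rn5. The sources used here do not give the aligner, the annotation release, the strand setting or the level of the bounds. The value column names no sample, so it was treated as 1 library or pool. The planned limma comparison of groups was not run. The members and lists were chosen with earlier results of these data known.

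Symbols were matched without regard to case. Starts were counted from 1, which adds 1 to the deposited start. Implied fragments were (2 × FPKM / (upper bound − FPKM)) squared. It was also run on simulated counts whose bounds were built by the same formula, which checks the arithmetic only. Such a run cannot show whether the deposited bounds lie 2 standard errors from the value. All 1331 receptor rows had status OK. Symbols were looked up in the RefSeq gene table of GRCr8, where 225 receptor rows matched by symbol, 1079 by synonym and 27 not at all; no coordinates were moved between builds. Start windows were searched on both strands. The text names every receptor with a lower bound above 0, the highest of each family, the rows around 1 FPKM, and for each pathway list the 3 highest genes and those at 0; others were added after their values were seen. One marker gene is not reported here. Python 3.11.15, numpy 2.4.6, pandas 2.3.3 and matplotlib 3.10.9 were used. Near-identical receptor copies make single values uncertain.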

Additional observations from a re-analysis of the deposited data

How the results depend on the processing

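The count of receptor rows above 0 (48) and of those with a lower bound above 0 (11) stayed within 1.5 times, as did the 2 rows at 1 FPKM or more, without overlapping rows, without Olr1, without pseudogenes, with the highest row per symbol, without unplaced contigs and with status OK only (a setting that removed no row). Settings called added were chosen with the values in view. Without rows holding a fraction of a fragment (added), 30 rows were above 0 and 1 reached 1 FPKM, Tas1r2 being left out. The count at 1 FPKM became 33 at a minimum of 0.1 FPKM, 9 at 0.5 FPKM, and 1 at 2 FPKM and at 5 FPKM. It became 36 with at least 1 implied fragment, 15 with at least 3 and 5 with at least 10. The difference between receptor and other symbol rows was -76.1 percentage points for values above 0, -63.6 for 1 FPKM or more and -71.1 for lower bounds above 0. Against all other rows, with or without a symbol, it was -68.6, -55.3 and -61.1. Against rows within the 5th to 95th percentile of receptor spans, the last 2 became -62.6 and -70.1. Among rows of 780 to 1100 bases (added) it was -48.6, -35.4 and -39.4. None of these differences changed sign. No paired analysis was possible because the value column names no sample, and leaving out libraries was not possible for the same reason. Depth limits the short receptors most: 1 fragment was worth 0.110 FPKM at their median span.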

Other observations

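The olfactory receptor rows were counted by chromosome, with no test. Chromosome 1, with the most Olr rows (275), had 4 above 0 (1.46%), and chromosome 3 had 2 of 241 (0.830%). Chromosome 4 had 7 of 55 (12.7%), of which 4 were the set Olr824 to Olr829 that holds 1 fragment in all and 1 was Olr1. Chromosome 7 had 6 of 80, of which 5 held fractions of a fragment. Chromosomes 2, 9 and X had none of 24, none of 14 and none of 5.

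The start windows were searched for 2 motifs. The letters TAATCC, a core that the photoreceptor factor CRX binds, were in 11.4% of 1008 receptor windows and in 7.17% of all 33469 windows. They were in 4 of 38 windows of receptors above 0 (10.5%) and in 111 of 970 of those at 0 (11.4%). TATAAA was in 37.7% of receptor windows and 14.2% of all windows. It was in 10 of 38 windows of receptors above 0 (26.3%) and in 370 of 970 of those at 0 (38.1%), a difference that was not tested. As receptor windows mostly lie before a start codon and not before a measured transcript start, these shares describe the letters only.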
